A study of Mus musculus with 4 samples.

Results

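The cells described here are sorted PDGFRa H2BGFP+ cells from 4 mouse hearts that were marked with antibody hashtags, pooled and sequenced as 1 droplet library. Of the 12567 cells that passed the filters (500 or more genes and 1000 or more UMIs, 1 UMI being 1 counted RNA molecule, with no more than 10% of UMIs mitochondrial), 7288 were given to a heart, out of 30454 filtered cells in the 4 libraries of the series. A cell was given to a hashtag when that hashtag held at least 80% of its hashtag counts and the cell had at least 10 of them. Hashtags were numbered 1 to 4 in file order, and hashtags 1 and 2 were set beside hashtags 3 and 4. Per the labels, 2 of the 4 hearts were undamaged and 2 were taken 7 days after ligation of the left anterior descending (LAD) coronary artery, a model of myocardial infarction. The labels tie no hashtag to ligation. The pairing rests on the level of Postn in these same cells, so every gene value that separates the pairs is a description, no test was made, and the pairs are called by their numbers throughout.

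All 4 hashed hearts came from B6.129S4-Pdgfratm11(EGFP)Sor/J mice, a strain listed under C57BL/6, in which a histone 2B-EGFP fusion is expressed from the Pdgfra locus. The reporter marks nuclei of cells that express Pdgfra, the receptor of platelet-derived growth factor that fibroblasts carry, and a histone fusion can outlast the messenger RNA of the gene that drives it. The hashing antibodies were directed against MHC class I. For values from hearts whose treatment the labels do give, 3 other libraries were read. Hic1 CreERT2 tdTomato+ cells, an inducible lineage label of cells that expressed the transcription factor gene Hic1, came from 3 pooled undamaged hearts and from 3 pooled hearts 7 days after LAD ligation. Hic1 citrine+ cells, sorted on a Hic1 reporter, came from 3 undamaged hashed hearts. All of these were on a C57BL/6 background, and ages are not given in the sources used here.

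Resident cardiac fibroblasts keep up the collagen network of the heart wall. After myocyte death they proliferate, switch on contractile and matricellular genes and lay down the scar, and the cells in that state are often called activated fibroblasts or myofibroblasts. Periostin (Postn) is a matricellular protein that binds collagen, Cthrc1 encodes a secreted protein of injured matrix, Tnc encodes the matricellular tenascin C, Col1a1 encodes a chain of type I collagen, and Runx1 encodes a DNA-binding transcription factor.

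The genes lie, on GRCm38, at chr3:54361109-54391037 (Postn, plus strand), chr15:39076932-39087121 (Cthrc1, plus strand), chr4:63959785-64047015 (Tnc, minus strand), chr16:92601466-92826149 (Runx1, minus strand) and chr11:94936224-94953042 (Col1a1, plus strand). For Postn, Runx1 and Tnc, the 3 of these 5 genes matched in the RefSeq promoter table, the 250 bases before a start site are shown (GRCm38.p6, strand of the gene, 5′ to 3′). Capitals mark matches, on either strand, to TGTGGT (RUNX), TGANTCA (AP-1), GGAATG (TEAD) or GTCTG (SMAD).
Postn, chr3:54360857-54361106, plus strand: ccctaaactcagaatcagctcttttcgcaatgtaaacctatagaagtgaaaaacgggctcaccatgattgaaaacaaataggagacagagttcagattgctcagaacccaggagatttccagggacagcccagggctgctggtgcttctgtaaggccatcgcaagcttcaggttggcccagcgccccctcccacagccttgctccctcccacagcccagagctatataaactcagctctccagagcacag
Runx1, chr16:92697330-92697579, minus strand: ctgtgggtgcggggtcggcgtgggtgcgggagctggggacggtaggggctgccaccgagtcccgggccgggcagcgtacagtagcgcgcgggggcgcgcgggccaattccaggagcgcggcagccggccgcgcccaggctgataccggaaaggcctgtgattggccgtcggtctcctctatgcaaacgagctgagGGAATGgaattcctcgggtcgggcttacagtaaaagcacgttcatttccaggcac
Tnc, chr4:64046937-64047186, minus strand: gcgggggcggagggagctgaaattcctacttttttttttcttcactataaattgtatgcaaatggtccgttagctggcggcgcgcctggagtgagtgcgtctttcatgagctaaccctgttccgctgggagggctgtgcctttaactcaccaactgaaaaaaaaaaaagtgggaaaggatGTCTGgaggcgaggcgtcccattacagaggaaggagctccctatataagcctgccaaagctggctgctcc
The Postn window holds none of the 4 motifs, the Runx1 window 1 TEAD match and the Tnc window 1 SMAD match. Among 32851 RefSeq promoter windows of this length, 14.0% hold the RUNX letters, 6.75% the AP-1 letters, 12.6% the TEAD letters and 42.2% the SMAD letters. At the other listed start site of each gene, Postn has 1 SMAD match and Runx1 and Tnc have 0 matches to any of them. The matches describe letters and not binding sites.

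Hashtags 1 and 2 held more and deeper cells than hashtags 3 and 4. Hashtags 1 to 4 held 2136, 3467, 569 and 1116 cells, with 25672384, 41241575, 3808464 and 7715939 UMIs. Median UMIs per cell were 10905, 10738, 6438 and 6787, and median genes per cell were 3145, 3130, 2369 and 2505.5. The cell numbers depend on the assignment rule: with a hashtag share of 50%, an alternative chosen after seeing the data, they were 3735, 4029, 1777 and 2225. Mixtures led by hashtag 3 and left out numbered 1431 cells. Fewer cells given to a hashtag can come from the heart, the sort, the staining or this rule, and these cannot be told apart. Levels are given below as CPM, a gene's UMIs scaled to the same total of gene UMIs in each hashtag, so that a UMI of difference weighs most in hashtag 3. Of the kept barcodes, 2 also occur in the undamaged tdTomato library, 0 in the ligated one and 35 in the citrine library. Every cluster of these cells detected at least 3 fibroblast markers. Among markers of other cell types, the leukocyte gene Ptprc was at 0, 0, 0 and 0.130 CPM and the endothelial gene Cdh5 at 0, 0.0970, 0 and 0 CPM in hashtags 1 to 4. Other members were present: the endothelial gene Pecam1 was at 9.74, 10.9, 13.4 and 15.4 CPM, and 1 or more of its UMIs were seen in 10.9, 11.7, 7.91 and 10.2% of cells. The pericyte list summed to between 253 and 327 CPM, most of it Ndufa4l2 and Pdgfrb. The summed macrophage list ranged from 8.66 to 11.1 CPM over the 4 hashtags. The 4 hashtags also held Y-linked Ddx3y RNA at 145, 137, 118 and 118 CPM.

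Postn and its companions stood far apart between the pairs and close within them. Postn was at 3625 and 3854 CPM in hashtags 1 and 2 and at 202 and 284 CPM in hashtags 3 and 4, a ratio of pair means of 15.4. Cthrc1 was at 879 and 1128 CPM against 11.6 and 16.2 CPM, a 72.1-fold ratio. The lowest of the high hashtags was still 54.3 times the highest of the low ones for Cthrc1.

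Tnc showed 309 and 287 CPM against 7.09 and 11.4 CPM, a 32.1-fold ratio. Runx1 showed 229 and 224 CPM against 15.8 and 12.2 CPM, a 16.2-fold ratio. Col1a1, abundant in every hashtag, showed 7422 and 7467 CPM against 1163 and 1378 CPM, a 5.86-fold ratio. Within each pair these 5 genes differed by far less than between pairs, an order that the pairing by Postn favours. The sizes depend on the assignment rule: the log2 ratio of Tnc was 3.85 with a hashtag share of 95% and 50 counts, which left 53 cells of hashtag 3, and that of Cthrc1 went from 6.17 to 5.15 with a share of 50%.

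**Figure D1:**
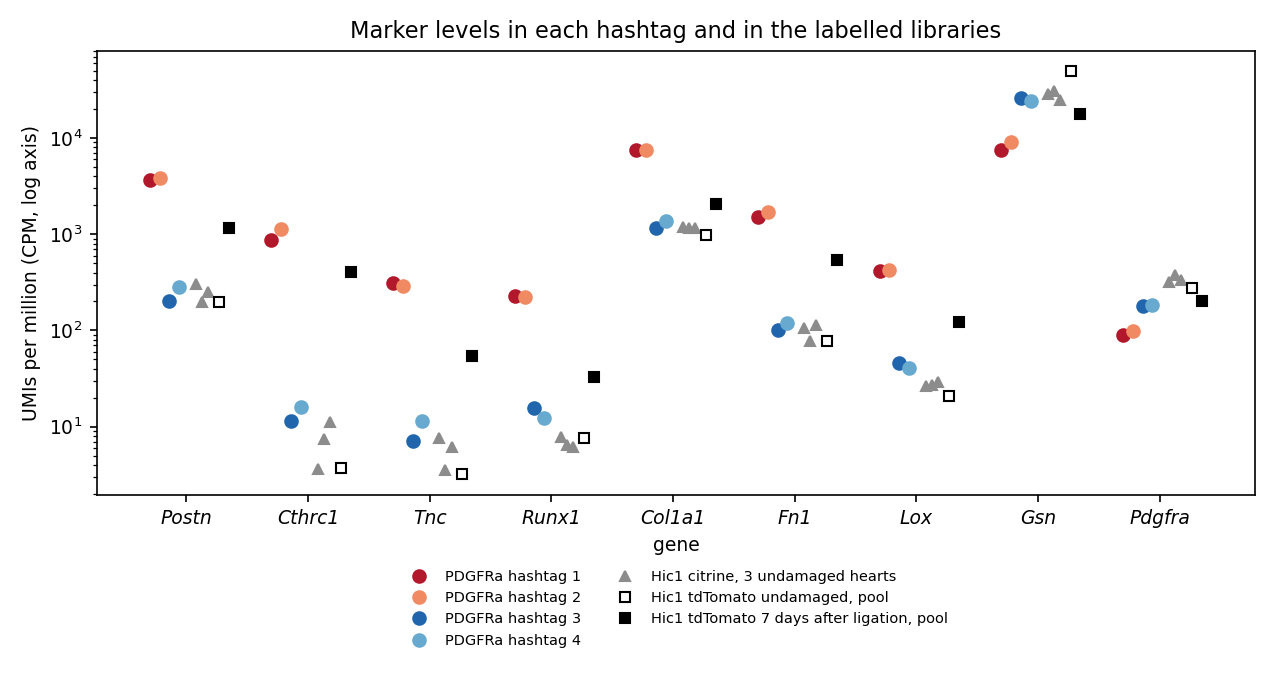
Level of 9 genes in CPM (vertical log axis) in PDGFRa hashtags 1 to 4 (filled circles), in 3 hashed undamaged Hic1 citrine hearts (triangles) and in the pooled Hic1 tdTomato libraries, undamaged (open squares) and 7 days after ligation (filled squares). Points are sums over cells with no error bar. Postn lies at 3625 and 3854 CPM in hashtags 1 and 2. It lies between 198 and 305 CPM in the PDGFRa hashtags 3 and 4 and in every undamaged heart or pool. The ligated pool lies between these levels. Postn set the pairs and levels are not comparable across library types, so no treatment of a hashtag is read from it.

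The same genes were read in the libraries whose treatment is labelled. In the undamaged citrine hearts, Cthrc1 lay at 3.65, 7.39 and 11.3 CPM and Runx1 at 7.84, 6.52 and 6.12 CPM. In fibroblast-like clusters of the tdTomato libraries (2426 undamaged and 3140 ligated cells), Cthrc1 was at 3.75 CPM undamaged and 409.9 CPM after ligation, a ratio of 109 (exact 95% Poisson interval 78.2 to 158). Postn was at 198 and 1154 CPM there, a ratio of 5.84 (5.56 to 6.13). Tnc had a ratio of 17.0 (11.7 to 25.5), Runx1 of 4.29 (3.34 to 5.60) and Col1a1 of 2.05 to 2.15 by its interval. Each labelled group is 1 library, so these intervals cover counting error only, and the labelled contrast shares no cells with the hashtags. Of the 5 genes, Cthrc1 alone had a larger ratio in the labelled contrast than between the hashtag pairs, a difference that was not tested and whose order turned with a pseudocount of 5 CPM (log2 5.57 labelled and 5.74 between the pairs). Levels are not comparable gene by gene across library types, since some genes differed whatever the treatment: Cebpb, a transcription factor gene, was at 571 to 959 CPM in the hashtags and at 3.92 to 8.27 CPM in the tdTomato libraries.

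Over all genes, a gene was called higher or lower when both hashtags of 1 pair lay above both of the other and the pair means differed at least 2-fold. Of 13666 genes with at least 20 UMIs over the 4 sums, 1240 (9.07%) were called higher in hashtags 1 and 2 and 788 (5.77%) lower. Since the pairs were chosen from these values, these shares are a background for the lists and nothing more. Hashtags 1 and 2 held most of the UMIs, so genes of low level could pass the UMI filter through these hashtags alone. That can favour higher calls, also in lists of low level such as the cell cycle and epicardial ones. Without the filter 2114 genes were higher and 1065 lower. Among genes reaching 50 CPM in a hashtag, 167 were higher and 132 lower. The median log2 ratio over all genes was -0.15, and it moved to 0.00 with TMM scaling, under which 1455 genes were higher and 532 lower and the share of calls that were higher went from 61.1% to 73.2%. Lists are therefore to be read against that median. Among 5770 genes with a mean of at least 20 CPM, 6 differed over 2-fold between hashtags 1 and 2 and 38 between hashtags 3 and 4. Between hashtags of different pairs, 362 to 435 did, and grouping hashtags of like Postn level favours this order.

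Most genes of the activation and matricellular list were higher in hashtags 1 and 2. Of 24 genes, 18 were called higher and 0 lower, with a median log2 ratio of 2.02. Fn1, which encodes fibronectin, was at 1505 and 1707 CPM against 102 and 118 CPM. Ddah1, whose enzyme breaks down an inhibitor of nitric oxide synthases, was at 262 and 279.9 CPM against 6.30 and 5.31 CPM, a 46.2-fold ratio. The heparin-binding growth factor gene Ptn was at 2396 and 2207 CPM against 159 and 181 CPM. Fn1, Ddah1 and Ptn were among the called genes, and a call itself requires that the pairs do not overlap.

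Contractile genes of the list followed. Tagln, an actin-binding protein gene of smooth muscle and myofibroblasts, was at 462 and 419 CPM against 48.3 and 25.9 CPM, and Acta2, smooth muscle actin, at 135 and 167 CPM against 28.6 and 16.2 CPM. Myh11, which defines mature smooth muscle, had 0.0390, 0.0242, 0 and 0.130 CPM in hashtags 1 to 4, near 0 in all of them. The 6 uncalled genes of the activation list included Ctgf, a matricellular gene just under the threshold at 1425 and 1417 CPM against 698 and 752 CPM (1.96-fold). Fap, a surface protease gene used as a mark of activated fibroblasts, was at 50.4, 53.9, 55.7 and 50.7 CPM, and Tgfbi was at 63.3 and 58.0 CPM against 127 and 106 CPM.

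**Figure D2:**
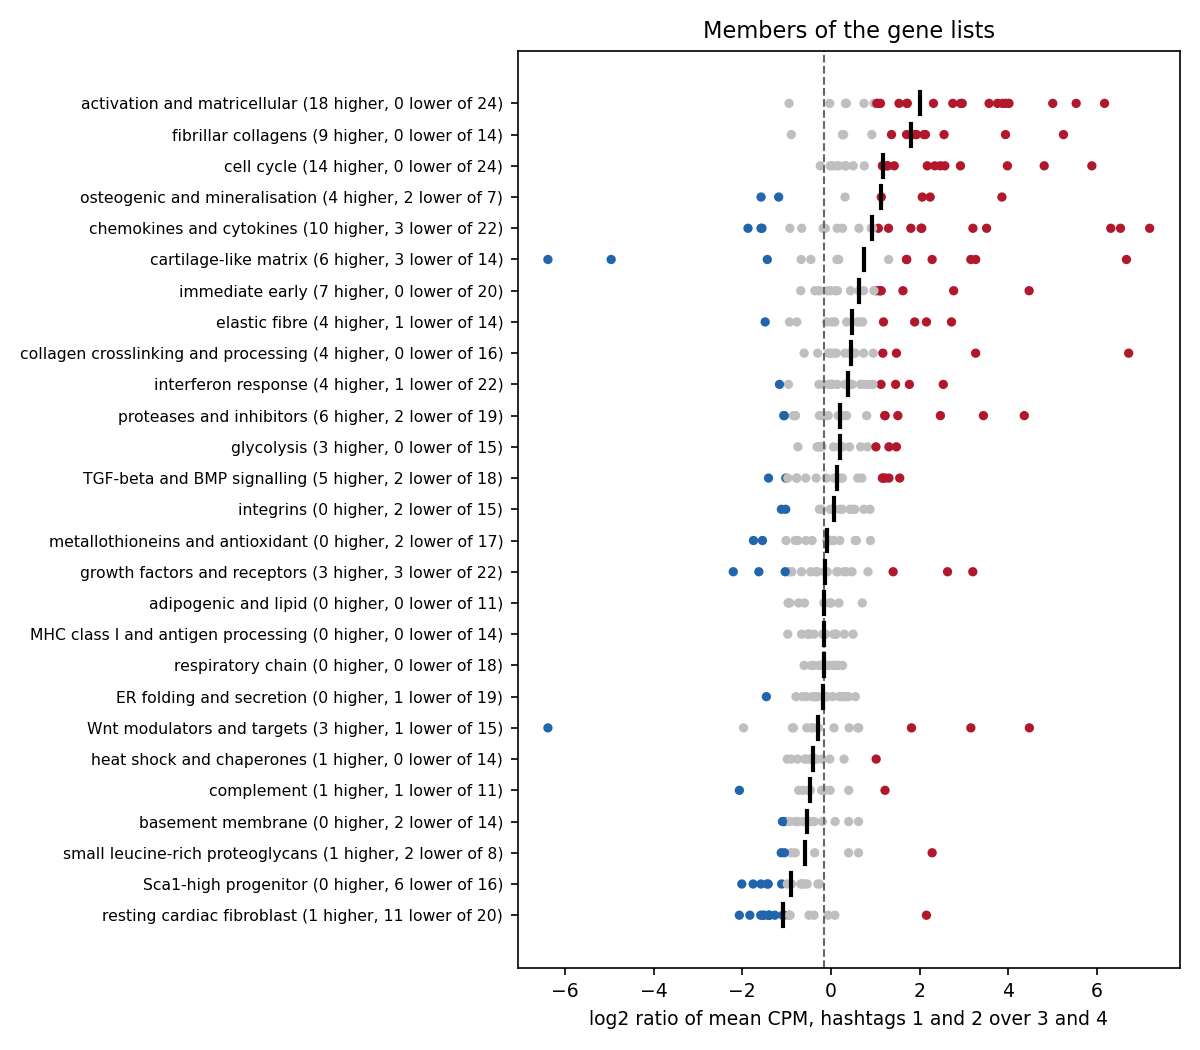
Log2 ratio of mean CPM, hashtags 1 and 2 over hashtags 3 and 4 (horizontal axis), of each tested member (points) of 27 gene lists, with the list median (black bar) and the median of all 13666 genes at -0.15 (dashed line). Red points were called higher, blue points lower and grey points neither, and the activation list (median 2.02) and the resting fibroblast list (median -1.08) lie at the ends.

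Of 14 genes on the fibrillar and associated collagen list, 9 were called higher and 0 lower, with a median log2 ratio of 1.80. Col3a1, type III collagen, was at 11926 and 11636 CPM against 2543 and 2838 CPM. Col11a1, a minor fibrillar chain, was at 26.5 and 46.5 CPM against 1.05 and 0.778 CPM, and Col12a1, which lies on the surface of collagen fibrils, at 77.5 and 104 CPM against 5.78 and 5.96 CPM. The beaded-filament gene Col6a1 was at 795 and 747 CPM against 611 and 675 CPM, and the 3 type VI genes were not called. The chains of type V collagen differed from each other. Col5a2 was called higher at 1039 and 1059 CPM against 253 and 309 CPM, Col5a1 was under the threshold at 488 and 504 CPM against 255 and 269 CPM, and Col5a3 had the reverse order without a call, at 123 and 128 CPM against 218 and 249 CPM.

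Basement membrane genes, which line muscle cells and vessels, had a median log2 ratio of -0.54, with 0 of 14 called higher and 2 lower. Lamb1, a laminin chain, was at 195 and 203 CPM against 399.6 and 427 CPM, and Sparcl1 at 544 and 552 CPM against 1085 and 1254 CPM. Among collagen-processing genes, 4 of 16 were called higher and 0 lower. Lox, the enzyme that crosslinks collagen, was at 414 and 420.2 CPM against 45.7 and 41.1 CPM, a 9.60-fold ratio. P4ha3, a subunit of a prolyl hydroxylase, was at 31.7 and 33.4 CPM against 0 and 0.518 CPM, with a log2 ratio of 6.71 that was 5.84 without hashtag 3. Without hashtag 4 it was 9.32, a value set by the pseudocount, as hashtag 3 was at 0 CPM. Serpinh1, the collagen chaperone, was not called.

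Elastic fibre genes were split, with 4 of 14 higher and 1 lower. Fbn2, fibrillin 2, was at 64.2 and 55.6 CPM against 8.14 and 9.98 CPM, while Efemp1, a fibulin, was at 56.1 and 61.6 CPM against 172 and 157 CPM. Of 8 tested small leucine-rich proteoglycans, which coat collagen fibrils, 1 was higher and 2 were lower. The higher gene, Fmod (fibromodulin), was at 44.5 and 57.2 CPM against 17.3 and 3.50 CPM, and its log2 ratio of 2.28 was 1.55 without hashtag 4 and 3.84 without hashtag 3. Dcn, decorin, was at 12221 and 12466 CPM against 21997 and 21130.0 CPM, under the threshold.

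The cartilage-like list held genes at both extremes, with 6 of 14 tested genes called higher and 3 lower and a median log2 ratio of 0.74. The labelled libraries gave the list the other direction. There, 2 of 14 tested genes were at least 2-fold higher after ligation and 7 lower, with a median log2 ratio of -1.04. Acan, aggrecan, was at 2.61 and 7.64 CPM in hashtags 1 and 2 and had 0 UMIs in hashtags 3 and 4. That is at least 21.9-fold higher against a floor of 3 UMIs over hashtags 3 and 4 together. Its log2 ratio of 6.67 (5.71 without hashtag 2) is set by the pseudocount, so the floor value is the one to read. Comp, a matrix protein of cartilage and tendon, was at 148 and 189.9 CPM against 68.3 and 35.0 CPM, whereas in the labelled libraries it was lower after ligation (103 and 48.8 CPM, ratio 0.473, 0.429 to 0.523).

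Cytl1 and the Wnt inhibitor gene Wif1 were the lowest of that list. Cytl1, a secreted cytokine-like gene of cartilage, was at 1.68 and 2.28 CPM against 98.2 and 27.7 CPM, with a log2 ratio of -4.96 that was -3.78 without hashtag 3. Wif1 was at 0.117 and 0.194 CPM against 32.3 and 2.07 CPM, and its log2 ratio of -6.38 was -3.36 without hashtag 3. Both genes were thus lower in hashtags 1 and 2 with or without hashtag 3, by a smaller ratio without it. In cells, a Wif1 UMI was seen in 2.11% of hashtag 3 (exact 95% interval 1.09 to 3.65) and in 0.627% of hashtag 4 (0.253 to 1.29). The labelled tdTomato libraries held Wif1 at 46.9 CPM undamaged and 0 UMIs after ligation.

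Among Wnt modulators and targets, 3 of 15 were higher and 1, Wif1, lower. Sfrp2 and Sfrp1, secreted decoys of Wnt ligands, were at 1132 and 1249.9 CPM against 159 and 108 CPM and at 885 and 824 CPM against 240.3 and 245 CPM. Proteases and their inhibitors had 6 of 19 higher and 2 lower. Timp1, an inhibitor of matrix metalloproteinases, was at 1312 and 1073 CPM against 132 and 87.7 CPM. Adam12, a membrane metalloprotease, was at 24.4 CPM or just under it in hashtags 1 and 2 and at 0.788 and 1.43 CPM in hashtags 3 and 4, a log2 ratio of 4.36. Htra3, a secreted serine protease, was at 426 and 422 CPM against 821 and 952 CPM, and it was higher after ligation in the labelled libraries (649 and 977 CPM).

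Ligands of the TGF-beta family differed in direction. Of 18 tested genes of that list, 5 were higher and 2 lower. Tgfb3 was at 130.2 and 142 CPM in hashtags 1 and 2, a log2 ratio of 1.55, and Inhba, a subunit of activin A, at 54.6 and 43.5 CPM against 23.6 and 15.9 CPM. Bmp4, a bone morphogenetic protein ligand, was at 23.8 and 27.5 CPM against 74.6 and 61.6 CPM. Among growth factor genes, 3 of 22 were higher and 3 lower. The heparin-binding factor gene Mdk was at 296 and 275 CPM against 55.4 and 36.8 CPM, and Igfbp3, a carrier of insulin-like growth factors, at 31.9 and 20.8 CPM against 124 and 119 CPM.

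Of 22 chemokine and cytokine genes, 10 were called higher in hashtags 1 and 2, 3 lower and 9 neither, with a median log2 ratio of 0.92. Cxcl2, a neutrophil-attracting chemokine, was at 1301 and 650.5 CPM against 11.8 and 9.20 CPM. It was among the 5 genes most apart between hashtags 1 and 2, and its log2 ratio of 6.53 was 5.94 without hashtag 1. Il6 was at 474 and 395 CPM against 47.0 and 29.2 CPM, and Cxcl1 at 4275 and 3158 CPM against 1333 and 799 CPM. Ccl11, which attracts eosinophils, and the chemokine scavenger receptor gene Ackr3 were lower, Ccl11 at 53.6 and 89.1 CPM against 231 and 189 CPM and Ackr3 at 97.7 and 117 CPM against 300.1 and 342 CPM. Macrophage markers stood near 0 beside these genes. Lyz2 was the most abundant called one, at 3.93, 4.68, 0.263 and 0.648 CPM.

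Of 22 interferon response genes, 4 were higher and 1 lower. Irf1, an interferon-induced transcription factor gene, was at 175 and 154 CPM against 75.1 and 44.3 CPM. Ifi27l2a was at 694 and 726 CPM against 1268 and 1907 CPM. The hashing antibody binds MHC class I, and 0 of 14 genes of MHC class I and antigen processing were called. B2m, its invariant chain, was at 989, 839, 826 and 926 CPM in hashtags 1 to 4. Complement genes had 1 of 11 higher and 1 lower. The lower gene, C7, a part of the membrane attack complex, was at 38.0 and 39.3 CPM against 135 and 189 CPM.

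Genes of resting cardiac fibroblasts were lower in hashtags 1 and 2, with 11 of 20 called lower, 1 higher and a median log2 ratio of -1.08. Gsn, the actin-severing protein gelsolin, was at 7470.3 and 9104 CPM against 25742 and 23952 CPM. Inmt, a methyltransferase gene, was at 65.0 and 72.4 CPM against 249 and 239.5 CPM, and Dpep1, a dipeptidase gene, at 428 and 408 CPM against 1068 and 1128 CPM. Mgp, an inhibitor of calcification, did not separate the pairs, at 9092, 9549, 9128 and 10365 CPM. When each cell weighed alike instead of each UMI, 4 of the 20 were called lower.

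Fibroblast progenitor genes of the Sca1-high list had 0 of 16 called higher and 6 lower, with a median log2 ratio of -0.90. Pi16, a marker of adventitial fibroblasts, was at 372 and 431 CPM against 854 and 882 CPM. Dpp4, a surface peptidase, was at 5.84 and 7.71 CPM against 28.4 and 26.6 CPM. Ly6a, which encodes Sca1 itself, was at 335 and 338 CPM against 643 and 617 CPM, under the threshold. Pdgfra, the gene that drives the sorted reporter, was at 90.3 and 98.1 CPM against 179.6 and 186 CPM (1.94-fold higher in hashtags 3 and 4), also under it. Under stricter assignment (a hashtag share of 95% and 50 counts) its log2 ratio went from -0.96 to -1.07, past 2-fold. After thinning each cell to 2000 UMIs, the expected share of cells with a Pdgfra UMI was 18.9% in hashtag 1 (95% interval 17.3 to 20.7). It was 19.7 to 22.4% in hashtag 2 by the same interval, and 29.3 and 29.6% in hashtags 3 and 4. Unthinned, a UMI was seen in 57.6, 59.5, 61.7 and 64.1% of cells of hashtags 1 to 4, where cells of hashtags 1 and 2 are deeper. A reporter feature that the files name SSM2GFP was at 28.1 and 27.7 CPM against 44.9 and 42.4 CPM.

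Proliferation genes were scarce. Of 24 cell cycle genes, 14 were higher and 0 lower, most of them under 10 CPM. Mki67, a marker of cycling cells, was at 2.65 and 3.27 CPM in hashtags 1 and 2, with 68 and 135 UMIs, and had 0 UMIs in hashtags 3 and 4, at least 11.7-fold lower in them against a floor of 3 UMIs over the 2 hashtags. A Mki67 UMI was found in 1.18% of hashtag 2 cells, and the exact 95% interval for hashtag 1 was 1.03 to 2.11%. With 0 of 569 and 0 of 1116 cells, shares of up to 0.646% and 0.330% (exact upper bounds) remain possible in hashtags 3 and 4. With each cell thinned to 2000 UMIs, the expected shares were 0.314 and 0.338% in hashtags 1 and 2 against upper bounds of 0.657 and 0.336% in hashtags 3 and 4. The share of hashtag 2 thus lay just above the bound of hashtag 4. The intervals of hashtags 1 and 2 (0.132 to 0.677% and 0.180 to 0.607%) reached below both bounds, so the shares of cells were not clearly apart at that depth. Tyms, a nucleotide synthesis gene, was at 40.7 and 42.0 CPM against 20.2 and 16.7 CPM, and Pcna, a DNA replication clamp, at 19.6, 17.4, 24.2 and 19.6 CPM was not called. Mcm3, a helicase subunit of DNA replication, was at 6.08, 6.45, 7.61 and 5.05 CPM and did not separate the pairs either. Top2a, a topoisomerase of dividing cells, had a log2 ratio of 2.17 that was 5.97 without hashtag 3 and 1.23 without hashtag 4.

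Bone-related genes were few, with 4 of 7 tested genes higher and 2 lower. Spp1, osteopontin, was at 146 and 84.1 CPM against 8.66 and 7.13 CPM, and Runx2, the bone-forming relative of Runx1, at 25.8 and 25.6 CPM against 11.8 and 11.5 CPM. Immediate early genes, which also answer to tissue digestion, had 7 of 20 higher and 0 lower. Fosl1 was at 9.19 and 7.40 CPM against 0.263 and 0.389 CPM and Myc at 196 and 169 CPM against 70.1 and 48.2 CPM. Fos was at 3774, 4303, 4290.4 and 3834 CPM in hashtags 1 to 4, with the pairs overlapping. Respiratory chain genes (0 of 18 called) and lipid genes (0 of 11) did not separate the pairs at 2-fold, and 3 of 15 glycolysis genes were higher, Hk2 among them at 279 and 253 CPM against 99.8 and 91.6 CPM.

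Outside the lists, genes were named among the 3464 that reached 50 CPM, of which 4.82% were called higher and 3.81% lower. The highest ratios included other secreted and cytoskeletal genes. Wisp1, a matricellular gene of the family of Ctgf, was at 73.9 and 77.1 CPM against 1.84 and 1.30 CPM, and it was at 1.43 and 35.3 CPM in the undamaged and ligated labelled libraries. Wfdc18 was at 33.0 and 59.8 CPM against 0.525 and 0.907 CPM, and had 0 UMIs in the undamaged labelled library against 21.8 CPM after ligation. Palld, an actin-organising protein gene, was at 122 and 129 CPM against 4.99 and 4.28 CPM. Bdnf, a neurotrophin, was at 134 and 143 CPM against 8.14 and 4.41 CPM. Both Palld and Bdnf were also higher after ligation in the labelled libraries, with ratios of 6.54 (4.52 to 9.78) and 3.72 (2.99 to 4.66).

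Some off-list genes with high hashtag ratios had labelled intervals that include 1. Ptx3, a pentraxin that binds matrix and microbes, was at 723 and 484 CPM against 45.2 and 24.2 CPM, with a labelled ratio of 1.12 (0.954 to 1.31). Nr4a2, an orphan nuclear receptor gene, was at 145 and 151 CPM in hashtags 1 and 2, a log2 ratio of 3.63, with a labelled ratio of 0.977 (0.857 to 1.11). Ncam1, a cell adhesion gene, was at 54.1 and 55.2 CPM against 5.78 and 4.28 CPM, with a labelled ratio of 0.953 (0.766 to 1.19).

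Rpl29, which encodes a ribosomal protein, had the lowest ratio off the lists. It has many pseudogene copies, whose part in its counts was not tested. It was at 6.19 and 10.6 CPM against 168 and 345 CPM, a log2 ratio of -4.92 that was -4.31 without hashtag 4. In the labelled libraries it was the other way round, at 371 CPM undamaged and 789 CPM after ligation (ratio 2.13, 2.05 to 2.21), and the 3 citrine hearts held 321, 543 and 611 CPM. The direction thus differed between the contrasts. Other low genes were Vit, a matrix protein gene at 10.5 and 12.3 CPM against 62.8 and 78.4 CPM, and the cyclin gene Ccnd1 at 77.2 and 68.5 CPM against 278 and 305 CPM. The glucocorticoid-induced gene Tsc22d3 was at 131 and 163 CPM against 320.1 and 852 CPM, and its log2 ratio of -1.99 was -1.12 without hashtag 4.

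Calls in the stress, integrin and antioxidant lists stand beside 14.8% of all 13666 genes called higher or lower. None of their counts is read as a result about its list. Of 19 genes of protein folding and secretion, 0 were higher and 1, Sdf2l1, lower, with a log2 ratio of -1.46 that was -0.72 without hashtag 4. Heat shock genes had 1 of 14 higher and 0 lower, and integrins 0 of 15 higher and 2 lower. Of 17 metallothionein and antioxidant genes, 0 were higher and 2 lower. Those were Txnip, an inhibitor of thioredoxin, at 214 and 290.0 CPM against 644 and 828 CPM, and Gstm1, a glutathione transferase gene, at 272 and 303 CPM against 1046 and 883 CPM.

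Hearts of 1 pair also differed from each other in single genes. C1qtnf3, a secreted protein gene, was at 106 CPM in hashtag 1 and 263 CPM in hashtag 2, against 6.04 and 4.41 CPM, and its log2 ratio of 5.13 was 4.32 without hashtag 2. Id1, a target of bone morphogenetic proteins, was at 43.7 and 101 CPM in hashtags 1 and 2 and at 58.0 and 37.1 CPM in hashtags 3 and 4. Between hashtags 3 and 4, the chaperone-related gene Chordc1 was at 37.5 and 138 CPM and the cold-induced gene Cirbp at 83.0 and 27.2 CPM. The heat shock gene Hspa4l was at 28.1 and 79.8 CPM in the same hashtags, on the side of Chordc1.

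Activation genes varied from cell to cell within hashtags 1 and 2. Each cell was thinned to 2000 UMIs, which left out 10, 19, 9 and 19 cells of hashtags 1 to 4, and its UMIs of the 24 activation genes were summed. The median cell held 38, 37, 13 and 14 such UMIs in hashtags 1 to 4, and the 90th percentile was 93, 97.3, 27 and 30. The lowest 10% of cells reached 9 and 8 UMIs in hashtags 1 and 2 and 5 and 6 in hashtags 3 and 4, so the distributions overlapped at their low ends. Above the 99th percentile of hashtags 3 and 4 together (53.4 UMIs) lay 38.8 and 39.3% of the cells of hashtags 1 and 2. Within 5 UMIs of that value lay 144 and 241 cells of these hashtags, so it marks a point on a range and not a type. The pairs were set from Postn and the list was chosen with earlier results of these data known, so these shares only describe the cells.

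**Figure D3:**
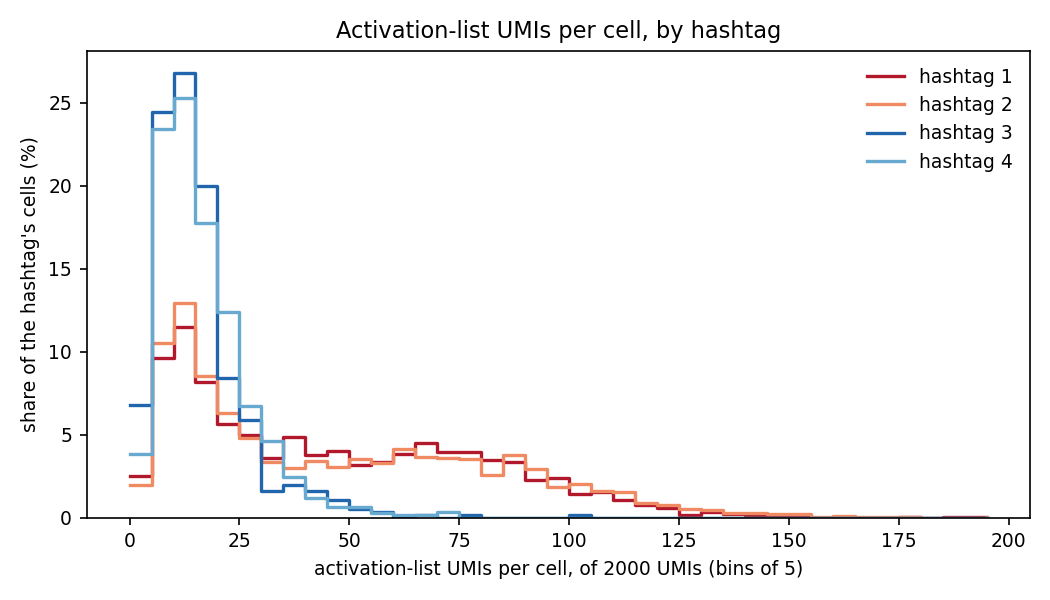
Share of each hashtag's cells in percent (vertical axis) by the UMIs of the 24 activation genes among 2000 UMIs per cell (horizontal axis, bins of 5). Hashtags 3 and 4 peak between 5 and 20 UMIs, while hashtags 1 and 2 have a lower peak there and a long shoulder up to about 150 UMIs.

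Shares of cells with a UMI gave the same order. After thinning to 2000 UMIs, the expected share of cells with a Cthrc1 UMI was 31.8% (95% interval 29.9 to 33.9) and 35.5% (33.9 to 37.2) in hashtags 1 and 2. In hashtags 3 and 4 it was 2.47% (1.37 to 4.16) and 2.64% (1.78 to 3.77). Unthinned, the shares were 48.0, 48.4, 7.56 and 8.24%. Postn after thinning was expected in 60.8, 58.1, 15.6 and 17.4% of cells, and Runx1 in 24.7, 22.4, 2.62 and 1.83%. Free RNA in a pooled droplet run can place Cthrc1 UMIs in cells of every hashtag. No cluster of a cell type that should lack these genes was found here, so its part in the shares of hashtags 3 and 4 was not tested.

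The pairs also fell into different clusters. Clusters were made without the listed genes and without the called genes, 2406 genes in all, and are given by number from the largest to the smallest. Genes that separate the pairs by less than 2-fold could stay in. At 1.5-fold, 1844 genes were called higher and 2214 lower, against 1240 and 788 at 2-fold. The cluster shares are therefore not independent of the pairing and only describe it. Clusters 2 and 4 together held 44.6 and 42.3% of hashtag 1 and 2 cells and 1.23 and 1.16% of hashtag 3 and 4 cells. Clusters 1, 3 and 6 held 28.5 and 29.0% of hashtags 1 and 2 and 91.2 and 94.3% of hashtags 3 and 4. In all 10 clusters the shares of 1 pair lay above both shares of the other, though in cluster 9 and cluster 10 on few cells. Median UMIs per cell were 14714 and 16405.5 in clusters 2 and 4, and 6426.5, 8013 and 5232 in clusters 1, 3 and 6, so depth moved with the clusters and its part in their shares was not tested.

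**Figure D4:**
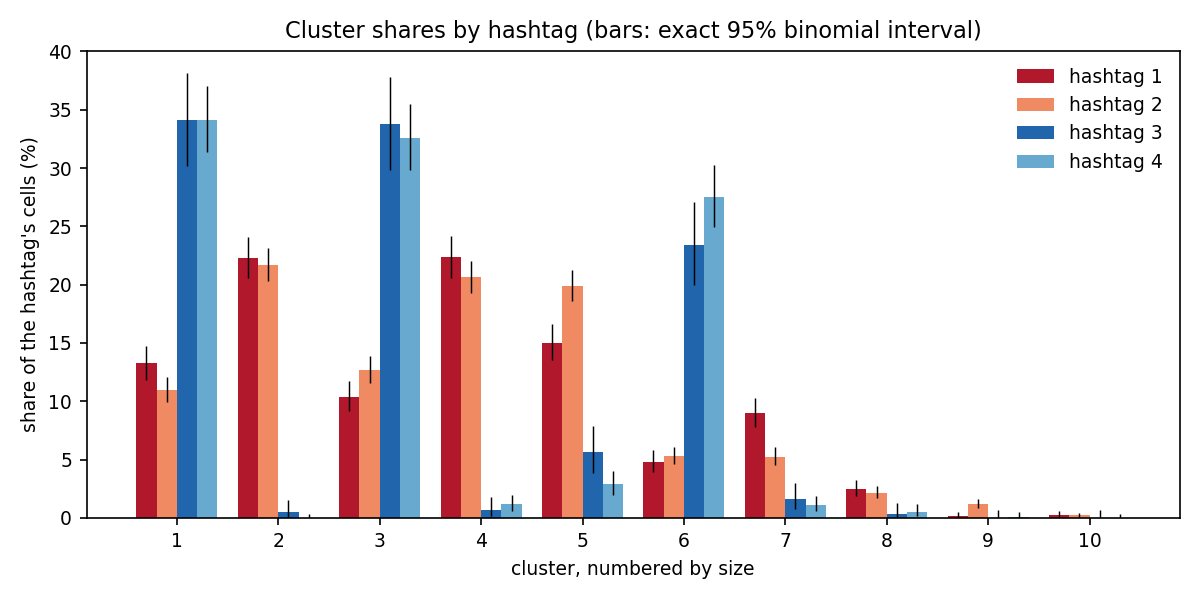
Share of each hashtag's cells in percent (vertical axis, with exact 95% binomial intervals for counting error) in each of 10 clusters (horizontal axis). Clusters 2 and 4 are almost without cells of hashtags 3 and 4, and clusters 1, 3 and 6 hold larger shares of hashtags 3 and 4 than of hashtags 1 and 2.

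The markers were also read within clusters. In the 4 clusters with at least 20 cells of each hashtag, Postn, Cthrc1, Runx1 and Tnc were higher in both hashtags 1 and 2 in 4 of 4. Postn itself set the pairs, and the share of all genes with that order in 4 of 4 was not computed, so the order only describes these genes. Cluster 5 held only 32 cells of hashtag 3 and 32 of hashtag 4. Cthrc1 there was at 14.1 and 17.2 CPM against 13.8 and 11.4 CPM, a small margin. In the same cluster Runx1 was at 51.3 and 39.3 CPM against 9.18 and 30.5 CPM. Tnc was at 17.1 and 27.1 CPM against 0 and 15.3 CPM, so the margins to hashtag 4 were small too. The ratio within a cluster was 2.44 to 5.35 for Postn, 2.28 to 3.40 for Runx1 and 1.92 to 10.3 for Tnc. Cthrc1 varied most, from 1.24 upwards, and in cluster 6 it was at 98.8 and 185 CPM in hashtags 1 and 2 against 11.3 and 14.4 CPM. Every ratio within these clusters lay below the ratio over all cells. Col1a1 was higher in 3 of 4, with ratios of 1.04 to 3.01. In cluster 3, led by Efhd1, Sema3c and Dpp4, Pi16 was at 2063 and 2039.9 CPM in hashtags 1 and 2 and at 1592 and 1596 CPM in hashtags 3 and 4. Its order there was the reverse of that over all cells.

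A small cluster 9, with Wt1 and Upk3b of the epicardium among its leading genes, held 4, 41, 0 and 1 cells of hashtags 1 to 4. Of the 7 tested epicardial markers, 6 were called higher in hashtags 1 and 2, and their list summed to 5.38, 9.24, 0.263 and 0.778 CPM. Wt1 was at 1.25, 6.13, 0.263 and 0.778 CPM, and its log2 ratio of 2.71 was 1.18 without hashtag 2. Of 10 pericyte markers, 1 was higher and 3 lower, and the list summed to 276, 253, 327 and 319.7 CPM in hashtags 1 to 4. Of 7 smooth muscle markers, 4 were higher and 1 lower, and the sum of 609.5, 611, 89.5 and 52.7 CPM was almost all Tagln and Acta2. Endothelial markers (3 of 7 higher, 0 lower) summed to 32.8, 45.4, 37.3 and 40.8 CPM, and cardiomyocyte markers (1 of 8 higher, 4 lower) to 13.8, 20.5, 18.4 and 24.6 CPM. Schwann markers (0 of 4 called) summed to 15.2, 15.9, 27.0 and 18.9 CPM. Lymphocyte, neutrophil and erythroid lists each summed to under 1 CPM in every hashtag. The part of these other cell types in the ratios was not tested.

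Cluster 10, with Mki67 and Top2a among its leading genes, held 5, 7, 0 and 0 cells. Cluster 8, led by the interferon genes Rsad2 and Ifit3, held 53, 75, 2 and 6 cells.

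Over all genes, the hashtag contrast and the labelled contrast overlapped in part. In the labelled fibroblast-like cells, 404 of 12337 genes (3.27%) were at least 2-fold higher after ligation and 484 (3.92%) lower. Of 12193 genes measured in both contrasts, 213 were higher in both, which is 27.9% of 763 hashtag calls and 55.9% of 381 labelled calls. Lower in both were 107 genes, 16.0% of 670 hashtag calls and 23.4% of 457 labelled calls. Of the 763 genes higher in hashtags 1 and 2, 40 were lower after ligation, beside 457 labelled lower calls among all 12193 genes. Of the 670 lower in hashtags 1 and 2, 13 were higher after ligation, beside 381 labelled higher calls. How many opposite calls unrelated contrasts would share was not computed. Across the 4958 of these genes with at least 20 CPM, Pearson's r between the log2 ratios was 0.47 and Spearman's rho 0.33. These are correlations across genes, which are no independent replicates. In the labelled contrast the activation list had 12 of 23 genes higher and 0 lower, and the resting fibroblast list 1 higher and 1 lower of 20, that is Cxcl14 and Gsn. Cxcl14, a chemokine gene, was at 358 and 274 CPM in hashtags 1 and 2 against 758 and 443 CPM in hashtags 3 and 4, while its labelled ratio was 3.40 (3.17 to 3.64).

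**Figure D5:**
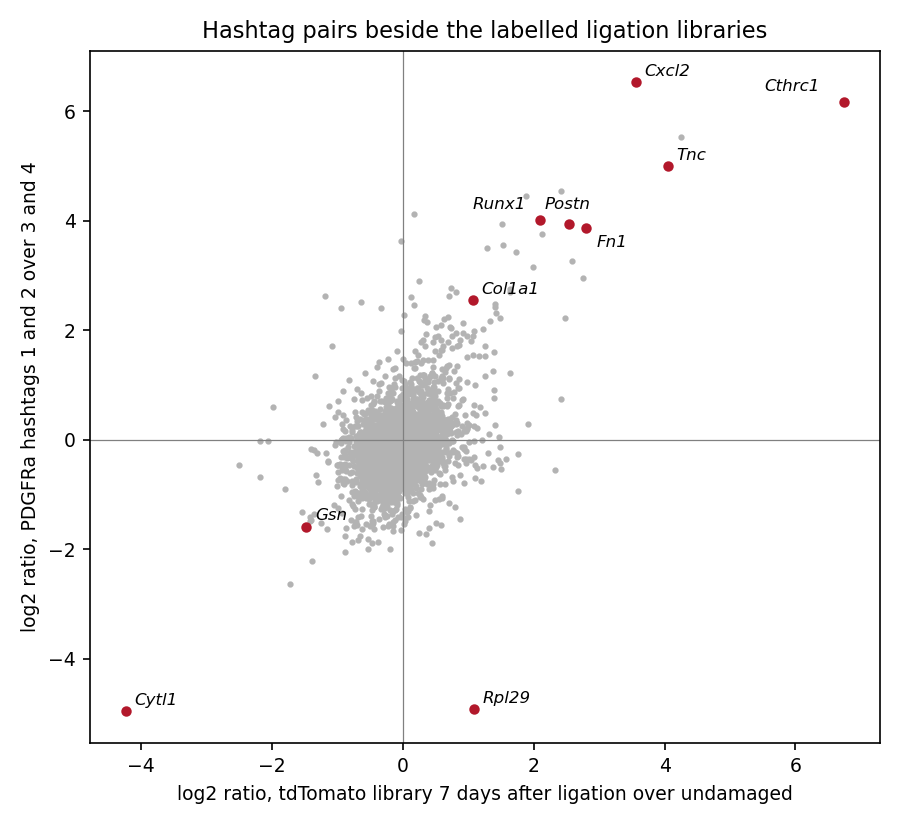
Log2 ratio of hashtags 1 and 2 over hashtags 3 and 4 (vertical axis) against the log2 ratio of the labelled tdTomato libraries, 7 days after ligation over undamaged (horizontal axis), for 4958 genes with at least 20 CPM (grey points). Labelled red points show Cthrc1, Tnc, Cxcl2, Postn, Fn1, Runx1 and Col1a1 high in both, Gsn and Cytl1 low in both, and Rpl29 with opposite signs.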

How the data were processed

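Per the labels' protocols, droplet libraries of 3′ ends were made with version 2 of the 10x kit. Cell Ranger and mm10 are named in the submitters' processing notes, with no role given. The deposited values are UMI counts per gene and barcode, written by Cell Ranger 3.0.2 per the file headers of the PDGFRa library. Seurat 2.1 is also named in those notes, and the deposited values are whole, not normalised. The 2 undamaged and 2 ligated PDGFRa hearts were hashed and pooled, and the map from hashtag to heart is not given in the sources used here.

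From these counts, cells were filtered, given to hashtags, and their gene UMIs summed per hashtag and scaled to CPM. Mixtures of hashtags were left out, which removes doublets between hearts but not within a heart, and no doublet caller was run. Ratios carry a pseudocount of 1 UMI at the mean hashtag depth. The code that makes the calls was checked on simulated counts, which gave none of the values reported. No p-value was computed, because the pairs were set from the outcome. Differences within a pair are given, but the pairs group hashtags of like Postn level, so these differences can understate the spread between hearts. Shares have exact Clopper-Pearson and ratios of the labelled libraries exact Poisson 95% intervals, for counting error only. Thinned shares of cells with a UMI are means of the probability that a cell keeps 1 or more UMIs. Their intervals treat the rounded expected number of cells as a count. Cells were clustered in scanpy 1.11.5 by the Leiden method at resolution 1, on 20 neighbours in 30 components of the 2000 most variable genes after scaling to 10000. TMM factors came from edgeR 4.0.16. Gene positions are from GENCODE M21 and promoters from RefSeq.

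The members and the gene lists were chosen with earlier results of these data known. The genes named are Postn, Cthrc1, Col1a1, Runx1 and Tnc, up to 2 members at each end of every list with at least 20 CPM in a hashtag and its textbook members. Also named are the highest and lowest called genes off the lists among those that reach 50 CPM, the genes furthest apart within a pair, and reporter, sex-linked and MHC class I genes. Of 540 listed genes, 533 have a feature. Scaling, filters, fold threshold, assignment, cell weight, pseudocount, thinning and single hashtags left out were tried as alternatives.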

Additional observations from a re-analysis of the deposited data

Results flagged for a closer look

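Cells given to no hashtag enter none of the comparisons, and Cthrc1 RNA was counted in them. These 5279 cells, 42.0% of the filtered PDGFRa cells, had Cthrc1 at 364 CPM (15391 of 42244752 UMIs). Of them, 5249 held a mixture of hashtags and 30 had under 10 hashtag counts. Mixtures led by hashtags 1 and 2 had Cthrc1 at 553 and 723 CPM, and those led by hashtags 3 and 4 at 28.8 and 43.5 CPM. Postn followed the same order in the mixtures, at 2384, 2205, 206 and 281 CPM for leading hashtags 1 to 4.

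Cells just under the assignment share of 80% (75 to 80%) had Postn at 2608, 3447, 147 and 208 CPM for leading hashtags 1 to 4, and cells just over it (80 to 85%) had 3059, 2737, 180.4 and 266 CPM.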

How the results depend on the processing

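Across the alternatives, the 153 recomputed log2 ratios of single genes, the 5 markers included, gave 0 changes of sign, with 117 moving little and 36 moving more. They include ratios of the labelled libraries. The pairs were kept and the genes were a fixed set with mostly large ratios. A change of sign was therefore hardly possible, and its absence says little. The limit for moving little was set by the difference within a pair, or was a fixed value for the labelled ratios. With a hashtag share of 95% and 50 counts (470, 2204, 53 and 135 cells), the log2 ratio of Tnc was 3.85, and those of Cthrc1 went from 6.17 to 6.55, of Cxcl2 from 6.53 to 7.85 and of Fn1 from 3.87 to 4.45, with 1504 genes higher and 1058 lower. With a share of 50%, chosen after seeing the data, Cthrc1 was at 5.15 and Fn1 at 3.50, with 1231 and 656 genes. With each cell weighing alike, Cthrc1 was at 5.59 and Gsn at -1.03 (-1.58 in the main setting), and with a pseudocount of 5 CPM Tnc was at 4.41, Wif1 at -2.11 and Cytl1 at -3.28. The main counts were 1240 genes higher and 788 lower. Lower calls were 510 with median-of-ratios scaling (split 74.3% higher), 2214 at 1.5-fold, where they outnumbered the 1844 higher calls (45.4% higher), and 432 with each cell weighing alike (split 71.3% higher). Higher calls were 2114 with no filter on counts. With at least 100 UMIs the counts were 752 and 525, at 3-fold 745 and 193, and with a pseudocount of 5 CPM 300 and 167. Among genes reaching 50 CPM, an alternative chosen after seeing the data, they were 167 and 132. Leaving out single hashtags gave 1257 to 1468 higher and 779 to 980 lower. Activation genes called higher were 14 to 20 over all alternatives and 16 to 19 without single hashtags, and resting genes called lower 11 to 13 without them, while resting fibroblast genes called lower were 2 at 3-fold and 4 with each cell weighing alike. The labelled counts of 404 and 484 were 95 and 76 with a pseudocount of 5 CPM. Shares of cells with a Cthrc1 UMI in hashtags 1 to 4 were 24.5, 28.4, 1.22 and 1.46% when thinned to 1000 UMIs and 48.0, 48.4, 7.56 and 8.24% unthinned. Causes of these moves were not tested.

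No paired analysis was possible because the result comes from no test and the hashtags carry no pairing between the groups. Depth limits genes under about 1 CPM in hashtag 3, where 3 UMIs are 0.788 CPM.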
